A study of Mus musculus with 12 samples.

Results

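54 genes of the cell division cycle were examined in endothelial cells sorted from the lungs of newborn mice, 28 of them acting in DNA replication and 26 in mitosis. They were chosen by name, as the rows whose gene symbol equals a member of the set, and not by their values. All 54 were listed in each of the 12 deposited tables, among 24421 genes, and all 54 passed the filter on low values that left 11633 genes for testing. Mki67, which encodes the Ki-67 protein of dividing cells, was counted with the mitosis genes, although the stated order of the set places it last among the first 29 genes.

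Lung endothelial cells of C57BL/6J mice were sorted by flow cytometry at postnatal day 5, in 3 groups of 4 libraries. WT libraries are labelled wild type. L12-ECKO libraries (LATS1/2-ECKO in the titles) carry VE-cadherin-CreERT2, an inducible Cre recombinase under an endothelial promoter, together with Lats1f/f and Lats2 f/f, floxed alleles of the kinase genes Lats1 and Lats2. L12YT-ECKO libraries (LATS1/2;YAPTAZ-ECKO) carry in addition Yapf/f TAZf/f, floxed alleles of Yap1 and of Wwtr1, the gene of TAZ. The day of Cre induction is not given in the sources used here, nor whether the wild-type mice carried the Cre or received the inducing drug. Whether each library is a separate animal is not stated, and p-values therefore measure the spread between these libraries only, which may be technical. Libraries were made with a kit that reads a short tag near the 3′ end of each transcript, and every value below is a deposited log2 expression value that had been quantile normalized. The depth of the libraries is unknown.

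Cells that enter the division cycle first load the MCM helicase at replication origins, then fire those origins in S phase, and after a gap condense and separate their chromosomes in mitosis. Transcripts for these steps rise and fall with the cycle. The E2F factors switch on replication genes around S-phase entry, and the DREAM and B-MYB complexes time the mitosis genes through elements called CHR. Many promoters of mitosis genes also hold elements called CCAAT boxes. LATS1 and LATS2 phosphorylate the co-activators YAP and TAZ and keep them out of the nucleus, and YAP and TAZ bound to TEAD factors are known to promote proliferation in many tissues, which makes these genes a natural readout of the genotypes compared here.

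Promoter sequences from RefSeq (GRCm38.p6) were searched for the letters of these elements. Windows from 250 bases before to 50 after the gene start were available for 46 of the 54 genes (24 replication, 22 mitosis). 3 kinds of letters were searched on both strands: the E2F site as TTTCCCGC, TTTCGCGC, TTTGCCGC or TTTGGCGC, the CHR as TTTGAA or TTCGAA, and the CCAAT box as CCAAT; matches of different kinds were allowed to overlap. E2F letters stood in 7 of 24 replication promoters (29.2%) and in 1 of 22 mitosis promoters (4.5%), against 2.3% of 27025 mouse promoters. CHR and CCAAT letters together stood in 18 of 22 mitosis promoters (81.8%) and 3 of 24 replication promoters (12.5%), against 7.7% of all promoters. A match is a description of the letters and does not show that a factor binds. The 200 bases before the gene start are printed 5′ to 3′ on the gene's strand, with matches in capitals, for the replication genes Mcm6 and Pola1, which hold E2F letters, for Mki67 and Top2a, the mitosis genes whose levels are described most closely below, and for Cdk1, which holds all 3 kinds. Mcm6 lies on the minus strand at chr1:128359706-128359905, Pola1 on the minus strand at chrX:93632156-93632355, Mki67 on the minus strand at chr7:135716380-135716579, Top2a on the minus strand at chr11:99024190-99024389 and Cdk1 on the minus strand at chr10:69352913-69353112.
Mcm6: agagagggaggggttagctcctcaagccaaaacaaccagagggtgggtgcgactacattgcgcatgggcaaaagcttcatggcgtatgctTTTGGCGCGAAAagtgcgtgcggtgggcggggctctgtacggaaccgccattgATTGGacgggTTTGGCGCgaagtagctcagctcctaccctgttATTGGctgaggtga
Pola1: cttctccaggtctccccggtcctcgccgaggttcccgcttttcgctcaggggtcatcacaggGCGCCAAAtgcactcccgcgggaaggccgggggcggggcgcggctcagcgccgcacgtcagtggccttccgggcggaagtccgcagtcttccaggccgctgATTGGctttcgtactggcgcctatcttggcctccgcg
Mki67: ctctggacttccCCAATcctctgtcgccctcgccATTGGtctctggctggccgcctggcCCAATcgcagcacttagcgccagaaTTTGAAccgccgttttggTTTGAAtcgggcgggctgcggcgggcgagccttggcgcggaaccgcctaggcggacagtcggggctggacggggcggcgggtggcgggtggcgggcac
Top2a: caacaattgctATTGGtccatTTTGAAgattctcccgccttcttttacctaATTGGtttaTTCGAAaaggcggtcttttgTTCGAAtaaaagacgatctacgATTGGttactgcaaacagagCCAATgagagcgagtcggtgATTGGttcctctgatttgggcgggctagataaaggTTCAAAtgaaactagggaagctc
Cdk1: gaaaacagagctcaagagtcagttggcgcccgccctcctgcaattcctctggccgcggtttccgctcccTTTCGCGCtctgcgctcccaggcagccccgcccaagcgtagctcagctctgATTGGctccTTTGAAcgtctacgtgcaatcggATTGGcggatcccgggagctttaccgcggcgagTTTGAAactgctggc

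Across the series, the labels and the sort were checked on a few genes. Wwtr1 lay between 11.56 and 12.01 in WT and between 8.16 and 9.37 in L12YT-ECKO, and Yap1 between 9.46 and 10.02 against 6.69 and 8.20. Lats2 had means of 8.93 (WT), 9.93 (L12-ECKO) and 8.97 (L12YT-ECKO), and Lats1 was listed at 0 in at least 1 library of each knockout group and at up to 7.40 and 7.90 in others; a 3′ tag outside the deleted part checks nothing. The 10 endothelial markers were all present in every library. Their summed level (on the log2 scale) was 18.10 to 18.30, but most of it is Egfl7, which stands at 17.72 in all 12 libraries, so the sum says little about the others. Tek, an angiopoietin receptor, differed by -1.11 (SE 0.27, adjusted p = 0.078) in L12-ECKO against WT in the limma fit, where 7 of 10 markers were lower. Cldn5, a tight junction gene, was called higher in L12YT-ECKO than in L12-ECKO, by 1.14 (SE 0.21, adjusted p = 0.040). The part of the endothelial markers in the members' values was not tested. In 5 libraries 33 rows of the tables, which hold no member, are displaced by 1 row. These libraries are L12-ECKO replicates 2 to 4 and L12YT-ECKO replicates 3 and 4. What this row layout stands for is not given in the sources used here, and it was used as a covariate below. The hepatocyte markers, given below, also differ between the layouts. No WT library has displaced rows. In L12-ECKO the 3 libraries with displaced rows are also the 3 female ones, by Xist and Ddx3y. WT and L12YT-ECKO hold 1 female library each.

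The members were expressed above most genes, with some at the edge of detection. Their median level over 12 libraries was 8.79, against 7.47 for all 11633 genes tested. The highest were Cenpa, the centromeric histone variant, at a mean of 11.91, Top2a, DNA topoisomerase II alpha, at 11.67, and Birc5, which encodes the chromosomal passenger protein survivin, at 11.62. Gins1, a subunit of the replicative helicase, was lowest at 1.87 and was listed at 0 in 7 of 12 libraries. 10 members were listed at 0 in at least 1 library, with 19 such values in all, and 6 of these values stood in L12-ECKO replicate 3, the library with the fewest genes above 0 (9850). A value of 0 can mean that a transcript was not sampled. Genes above 0 numbered 11100 to 11276 in WT, and 11336 to 13078 in the knockout libraries other than L12-ECKO replicate 3. The lowest value above 0 was 3.01 to 3.16 in WT, 0.07 to 2.77 in those knockout libraries and 4.98 in L12-ECKO replicate 3. Values above 0 but under those of WT, as for Prim1 and Rfc4, thus stood in knockout libraries only. The median SD between libraries of a group was 0.73 over the members and 1.04 over all genes tested, and 0.58 against 0.55 where only genes with a mean of at least 8 were taken. The tightest member was Top2a, with an SD of 0.29, and the widest was Ttk, the checkpoint kinase MPS1, with an SD of 3.11.

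**Figure D1:**
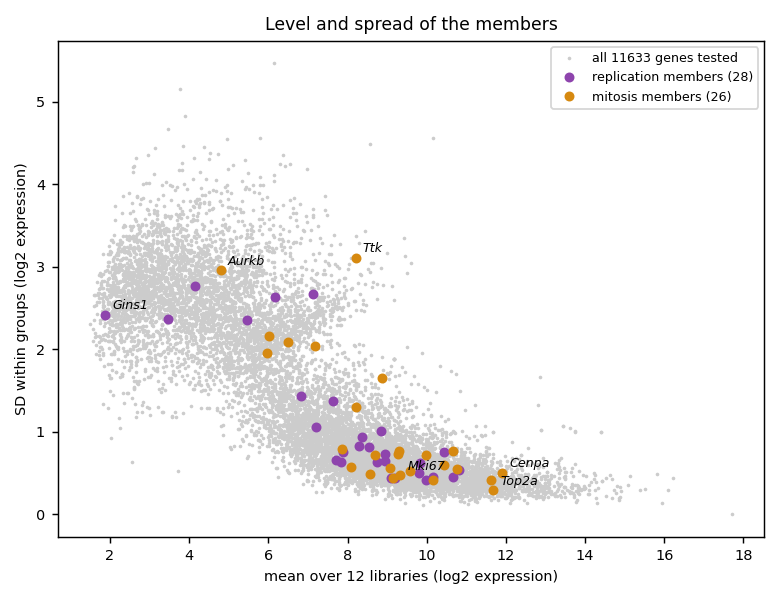
Each point is 1 gene, with its mean over 12 libraries (log2 expression) on the horizontal axis and its SD between libraries of a group on the vertical axis; grey points are all 11633 genes tested, purple points the 28 replication genes and orange points the 26 mitosis genes. The members lie within the cloud of all genes, from Gins1 at a mean of 1.87 to Cenpa at 11.91, and genes with means under 8 scatter more (median SD 2.06 over 18 members) than those above (0.58 over 36).

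Averaged over the lists, the 3 groups overlapped. In a bulk library, fewer dividing cells and less RNA of a gene per cell cannot be told apart. The mean over the 28 replication genes was 7.91, 7.73, 8.62 and 8.20 for WT replicates 1 to 4, 7.45, 8.37, 8.28 and 8.06 for L12-ECKO, and 7.48, 7.62, 7.99 and 8.29 for L12YT-ECKO. The group means were 8.11 ± 0.39, 8.04 ± 0.42 and 7.85 ± 0.37 (SD, n = 4), so the groups differed by less than the spread between libraries. The mean over the 26 mitosis genes was 9.08, 8.97, 9.33 and 8.99 for WT, 8.20, 9.06, 8.88 and 9.14 for L12-ECKO, and 8.43, 8.77, 8.99 and 9.17 for L12YT-ECKO, with group means of 9.09 ± 0.16, 8.82 ± 0.43 and 8.84 ± 0.32. L12-ECKO replicate 1 was the lowest library in both lists and L12YT-ECKO replicate 1 the next lowest, while WT replicate 3 was the highest in both. These means take values of 0 as they are. By the summed level, which 0 values hardly lower, L12-ECKO replicate 3 was the highest library in both lists, at 14.40 and 15.22, and the mitosis group means were 14.73 for WT, 14.76 for L12-ECKO and 14.46 for L12YT-ECKO. Mki67 and Top2a are the chromosome genes of the mitosis list, 1 of 11 role groups chosen with earlier results of these data known. Their mean was at least 10.74 in every WT library and at most 10.41 in every knockout library. Top2a alone overlapped between WT and L12-ECKO, where replicate 3 at 11.95 lay above the lowest WT library at 11.86. How often other pairs of genes separate in this way was not counted.

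**Figure D2:**
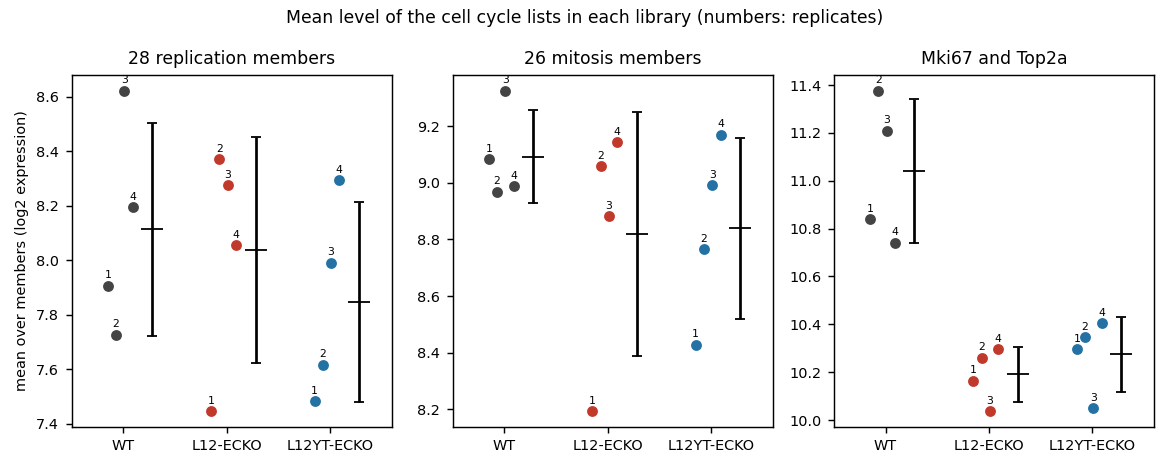
Each point is the mean of a list in 1 library (log2 expression, vertical axis) for the 3 groups on the horizontal axis, with the replicate number beside it and the group mean and SD (n = 4) as a bar. Replication and mitosis lists overlap between groups, from 7.45 to 8.62 and from 8.20 to 9.33. The mean of Mki67 and Top2a is 10.74 to 11.38 in WT and 10.04 to 10.41 in the knockout libraries, although Top2a alone overlaps between WT and L12-ECKO.

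L12-ECKO replicate 1 also differed in other cells' transcripts. The summed level of 9 immune markers was 16.44 in that library, against 7.41 to 8.54 in the other 3 L12-ECKO libraries, 6.98 to 11.65 in WT and 6.88 to 10.04 in L12YT-ECKO. The neutrophil genes S100a8 and S100a9 stood at 15.20 and 15.56 in it, Ptprc, the leukocyte marker CD45, at 10.16, and Cd3e, which marks T cells, at 0. The summed level of 9 erythroid markers, of a lineage with dividing precursors, was 14.86 to 17.45 in WT, 14.36 to 16.47 in L12-ECKO and 15.08 to 16.94 in L12YT-ECKO, and Klf1 and Gata1, which mark erythroid precursors, were listed at 0 in every library except L12YT-ECKO replicate 2 (Klf1 at 5.10) and replicate 4 (Gata1 at 2.15). 10 hepatocyte markers summed to 8.06 to 9.87 in WT, 9.11 to 12.17 in L12-ECKO and 8.52 to 11.12 in L12YT-ECKO, with Afp at 0 throughout. By row layout this sum did not overlap: it was 9.92 to 12.17 in the 5 libraries with displaced rows. In the 7 libraries with rows in place, of all 3 groups, it was 8.06 to 9.87. 9 epithelial markers summed to 10.58 to 13.03, 9.85 to 12.47 and 11.06 to 12.81, and 9 mesenchymal markers to 13.77 to 14.56, 14.26 to 15.10 and 14.03 to 15.03, in the same order of groups. The part of these cells in the members' values was not tested.

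L12-ECKO, targeted for loss of LATS1 and LATS2, was compared with the wild type first. The replication and mitosis genes showed no common shift in L12-ECKO: 24 of the 54 had a higher mean than in WT and 30 a lower one, with a median difference of -0.09 over the replication genes and -0.25 over the mitosis genes, against -0.02 over all genes tested. The 2 members whose libraries separated without overlap were Mki67, with lower values in L12-ECKO, and Gins2, a subunit of the GINS complex that activates the helicase, with higher ones, each by a little over 1 on the log2 scale. limma, fitted over all genes with Benjamini-Hochberg adjustment, called 0 of 54 members at an adjusted p under 0.05, where it called 0.481% of all genes tested (56 of 11633). At an unadjusted p under 0.05 there were 5 of 54 members (9.3%), 3 higher and 2 lower, against 12.2% of all genes (6.3% higher, 5.92% lower), so the members held no larger a share than the rest of the table. Groups without overlap, as for Gins2 and Mki67, were found for 6.33% of all genes (2.97% higher, 3.36% lower).

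Mki67 (GRCm38, GENCODE annotation, chr7:135689784-135716361, minus strand) had lower values in both knockout groups. Its values were 9.82, 10.72, 10.23 and 9.62 for WT, 9.26, 8.83, 8.13 and 9.36 for L12-ECKO and 8.87, 9.46, 8.64 and 9.04 for L12YT-ECKO. All 8 knockout libraries lay under the lowest WT library. How many of all genes do so was not counted, and both comparisons use the same 4 WT libraries. Taken apart, 3.36% of all genes were lower without overlap in L12-ECKO and 2.17% in L12YT-ECKO. The log2 difference from WT was -1.20 (SE 0.38, adjusted p = 0.19) in L12-ECKO, a level 0.435 times that of WT, with a 95% interval of -2.0 to -0.40, and neither this nor the similar difference in L12YT-ECKO passed the threshold. Gins2, Cenpe, Mcm7, Ttk and the other members that the naming rule in the methods does not choose were singled out after their values were seen. Gins2 (chr8:120578633-120589304, minus strand) had values of 8.77, 8.01, 8.61 and 8.94 for WT, 9.01, 10.29, 9.94 and 9.80 for L12-ECKO and 8.85, 9.52, 9.45 and 9.04 for L12YT-ECKO. All 4 L12-ECKO libraries lay above every WT library. Replicate 1 at 9.01 lay close to the highest WT library at 8.94, and under L12YT-ECKO replicates 2 to 4. Its difference from WT was 1.18 (SE 0.38, adjusted p = 0.20) in L12-ECKO and 0.63 (SE 0.38, adjusted p = 0.83) in L12YT-ECKO. The last 500 bases of Gins2 overlap Gm20388 and Gse1 on the opposite strand, and whether the counting used strand is not given in the sources used here.

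E2f1, the factor that activates replication genes, had higher means in both knockout groups than in WT. Its values were 9.73, 8.63, 9.91 and 8.94 for WT, 9.35, 10.63, 10.39 and 9.98 for L12-ECKO and 10.15, 9.72, 10.13 and 10.11 for L12YT-ECKO. WT replicates 2 and 4 lay under all knockout libraries, WT replicates 1 and 3 inside their range. The difference from WT was 0.78 (SE 0.37, adjusted p = 0.40) in L12-ECKO and 0.73 (SE 0.37, adjusted p = 0.81) in L12YT-ECKO. Cenpa (chr5:30666777-30674830, plus strand), which marks centromeric chromatin, had values of 11.55, 11.66, 12.50 and 10.90 for WT, 12.04, 12.24, 13.13 and 12.05 for L12-ECKO and 11.45, 11.61, 11.94 and 11.81 for L12YT-ECKO. L12-ECKO was the upper group except for WT replicate 3, which at 12.50 lay inside its range. The difference from WT was 0.71 (SE 0.32, adjusted p = 0.37) in L12-ECKO and 0.05 (SE 0.32, adjusted p = 0.99) in L12YT-ECKO. Cenpe (chr3:135212537-135273611, plus strand), the kinetochore motor that aligns chromosomes, had values of 9.41, 9.62, 9.31 and 8.75 for WT, 7.94, 7.97, 7.85 and 9.14 for L12-ECKO and 8.43, 8.33, 7.56 and 8.44 for L12YT-ECKO, so that 3 of 4 L12-ECKO libraries lay at or under 7.97 and the other inside the WT range. Its difference was -1.05 (SE 0.43, adjusted p = 0.34). Top2a (chr11:98992943-99024189, minus strand), which untangles sister chromosomes, was close between libraries at 11.86, 12.03, 12.19 and 11.87 for WT, 11.07, 11.69, 11.95 and 11.23 for L12-ECKO and 11.72, 11.24, 11.46 and 11.77 for L12YT-ECKO, and the difference in L12-ECKO was -0.50 (SE 0.25, adjusted p = 0.43), a level 0.706 times that of WT.

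The row layout and 1 library moved the balance of these differences. Without L12-ECKO replicate 1, the library with immune transcripts, 29 members were higher and 25 lower than in WT, the replication median changed sign to 0.22 and the mitosis median came to -0.02; 0 members were called and 10 stood at an unadjusted p under 0.05 (Gins2, E2f1, Plk1, Cenpa, Birc5, Ube2c and Ttk higher, Uhrf1, Mki67 and Aurkb lower), against 11.7% of all genes. With that library as the only L12-ECKO library among those with rows in place, the medians were -0.60 and -0.85, and with the row layout as a covariate over all 12 libraries they were -0.43 and -0.39. In that fit 16 members were higher and 38 lower than in WT, 0 were called, and 6 stood at an unadjusted p under 0.05, all lower (Rrm2, Prim1, Top2a, Cenpf, Ttk and Racgap1), against 7.62% of all genes; none of the 5 members past that p without the covariate was among them. Mki67 differed by -0.91 with the row layout as a covariate and -0.84 among libraries with rows in place, Gins2 by 0.83 and 0.43, E2f1 by 0.39 and 0.05, and Cenpa by 0.43 and 0.39. With sex as a covariate the replication and mitosis medians were -0.18 and -0.36. In that fit 3 members stood at an unadjusted p under 0.05 (Gins2 and Cenpa higher, Mki67 lower), against 9.32% of all genes.

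**Figure D3:**
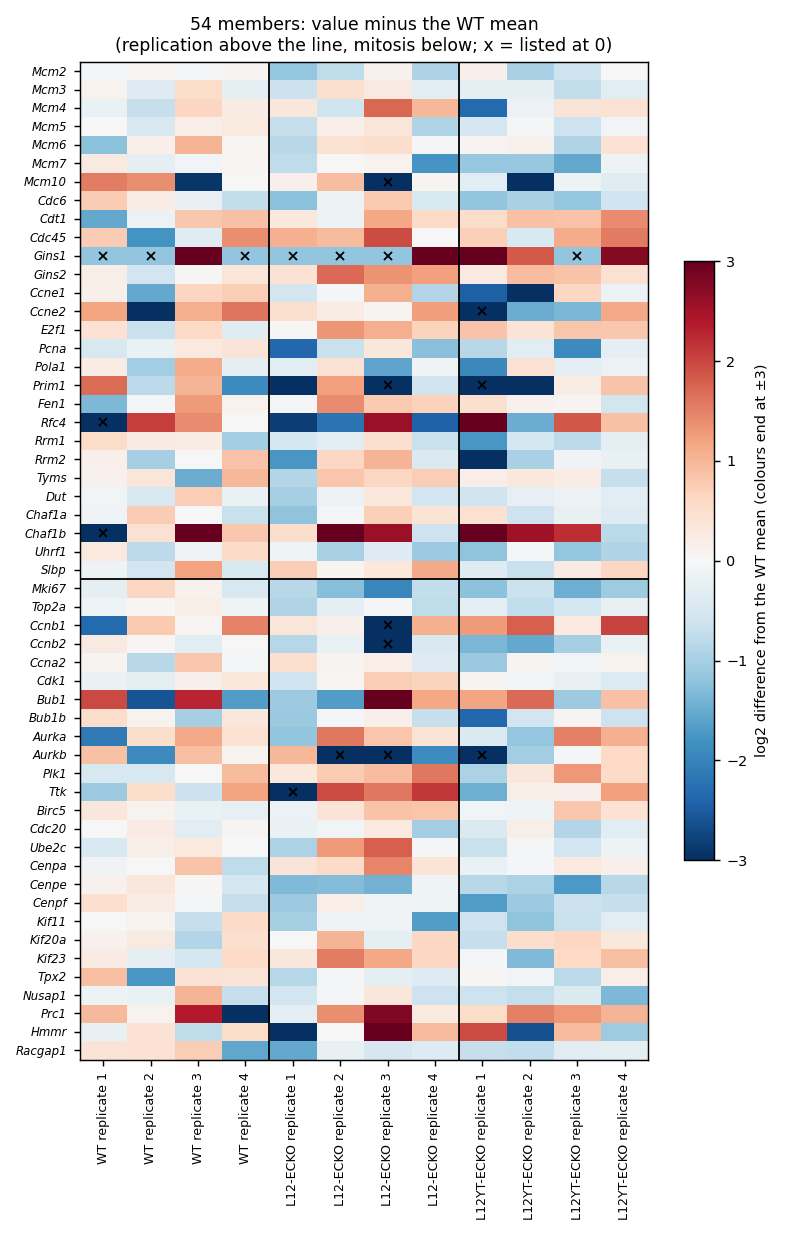
Rows are the 54 members (replication above the line, mitosis below) and columns the 12 libraries; colour (blue lower, red higher) gives the value minus the WT mean of that gene on the log2 scale, with colours ending at 3 in either direction, and a cross marks a value listed at 0. The Mki67 row is blue in all 8 knockout libraries, the column of L12-ECKO replicate 1 is blue in most rows, and 6 of the 19 crosses stand in L12-ECKO replicate 3.

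L12YT-ECKO, targeted for loss of YAP and TAZ as well, was then compared with the wild type. More members had lower means: 35 of 54 were lower in L12YT-ECKO than in WT and 19 higher, with a median difference of -0.35 over the replication genes and -0.23 over the mitosis genes, against 0.08 over all genes tested. Members at an unadjusted p under 0.05 were Mki67, the kinetochore genes Cenpe and Cenpf, the helicase subunit Mcm7, the maintenance methylation factor Uhrf1 and the spindle protein Nusap1, all with lower means. limma called 0 of 54 members, where it called 0.0086% of all genes tested (1 of 11633, Wwtr1 itself). At an unadjusted p under 0.05 there were 6 of 54 members (11.1%), all lower, against 6.23% of all genes and 2.11% of all genes in the lower direction. The groups did not overlap for 3 members, Mki67, Top2a and Cenpe, all lower, where 4.7% of all genes did not overlap and 2.17% did not overlap and were lower.

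Among these, Mki67 differed by -1.10 (SE 0.38, adjusted p = 0.73) and Top2a by -0.44 (SE 0.25, adjusted p = 0.82). Cenpe differed by -1.08 (SE 0.43, adjusted p = 0.76), with every L12YT-ECKO library at or under 8.44 and every WT library at or above 8.75. Cenpf, a kinetochore protein made in G2 and mitosis, had values of 10.52, 10.23, 9.97 and 9.32 for WT, 8.91, 10.21, 9.91 and 9.88 for L12-ECKO and 8.34, 8.92, 9.38 and 9.33 for L12YT-ECKO. The ranges met only at the border, where WT replicate 4 at 9.32 lay under L12YT-ECKO replicates 3 and 4. Its difference was -1.02 (SE 0.39, adjusted p = 0.75) in L12YT-ECKO and -0.28 (SE 0.39, adjusted p = 0.80) in L12-ECKO. Mcm7, a subunit of the MCM ring, had values of 10.65, 10.11, 10.28 and 10.44 for WT, 9.61, 10.38, 10.48 and 8.60 for L12-ECKO and 9.23, 9.23, 8.83 and 10.22 for L12YT-ECKO, with a difference of -1.0 (SE 0.41, adjusted p = 0.76); 3 of 4 L12YT-ECKO libraries lay under all WT libraries. The last 500 bases of Mcm7 overlap Cops6 on the opposite strand. Uhrf1, which brings DNA methylation to new DNA, had values of 11.61, 10.52, 11.21 and 11.89 for WT, 11.18, 10.33, 10.93 and 10.22 for L12-ECKO and 10.11, 11.26, 10.14 and 10.41 for L12YT-ECKO, with a difference of -0.83 (SE 0.35, adjusted p = 0.76). Nusap1, which bundles spindle microtubules, had values of 10.95, 10.91, 12.14 and 10.43 for WT, 10.53, 11.05, 11.44 and 10.48 for L12-ECKO and 10.49, 10.39, 10.66 and 9.76 for L12YT-ECKO, with a difference of -0.78 (SE 0.36, adjusted p = 0.77), the WT mean being raised by replicate 3 at 12.14.

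These differences had the same direction within the libraries with rows in place, where 4 WT stand against 2 L12YT-ECKO libraries. Those libraries are part of the fit that picked these genes, so the shared direction is not separate evidence. There Mki67 differed by -0.93, Cenpe by -0.89, Cenpf by -1.38, Mcm7 by -1.14, Uhrf1 by -0.63 and Nusap1 by -0.67, with list medians of -0.42 for replication and -0.51 for mitosis. With the row layout as a covariate 44 of 54 members were lower and 10 higher, and 0 were called. In that fit 9 stood at an unadjusted p under 0.05, all lower, against 6.02% of all genes. They were Mcm7, Cdc6, Ccne1, Rrm2, Prim1, Top2a, Bub1b, Cenpe and Cenpf. Mki67, Uhrf1 and Nusap1, past that p without the covariate, were not among them.

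**Figure D4:**
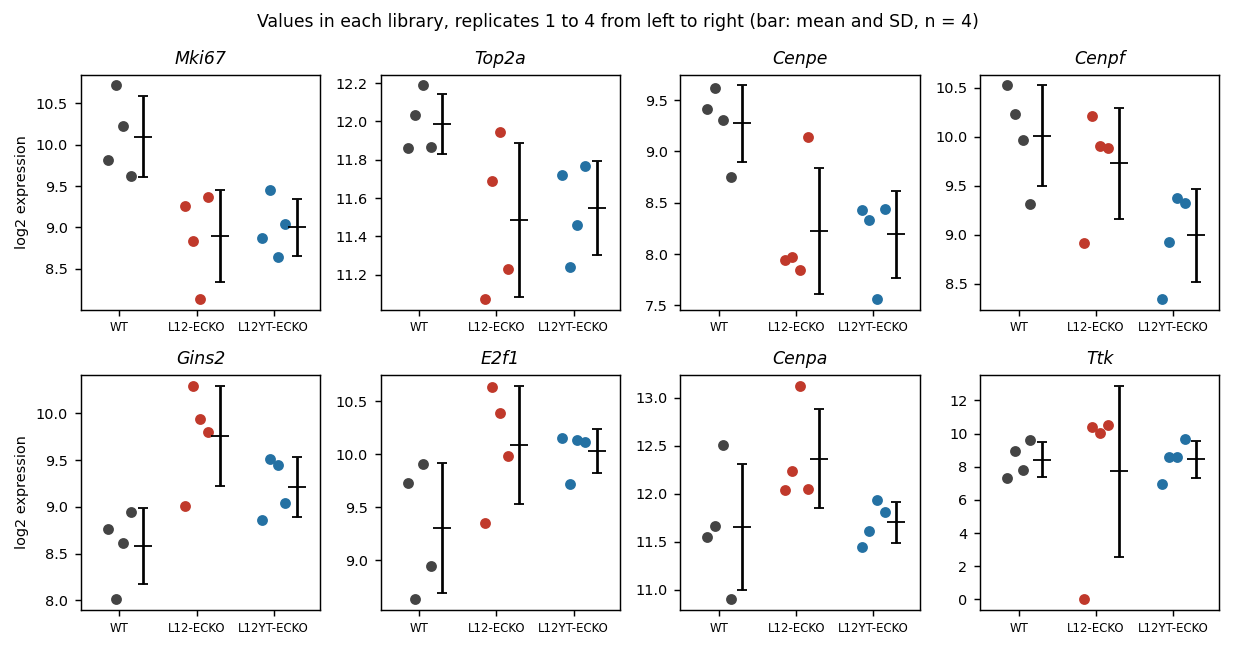
Each panel is 1 gene, with the 4 libraries of each group as points in replicate order, the value on the vertical axis (log2 expression, a scale of its own in each panel) and the group mean and SD (n = 4) as a bar. Mki67 is 9.62 to 10.72 in WT and 8.13 to 9.46 in the 8 knockout libraries. Gins2 and Cenpa have their highest group mean in L12-ECKO, and Ttk is listed at 0 in L12-ECKO replicate 1 alone.

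The effect of targeting YAP and TAZ on top of LATS1 and LATS2 was read from L12YT-ECKO against L12-ECKO. The loss of LATS1 and LATS2 itself is taken from the labels and was not shown by the values. No group of members separated them: 34 of 54 were lower in L12YT-ECKO and 20 higher, with a median difference of -0.18 over the replication genes and -0.12 over the mitosis genes, against 0.09 over all genes tested. limma called 0 of 54, where it called 0.0688% of all genes (8 of 11633). 1 member, Cenpa, stood at an unadjusted p under 0.05 (1.9%), lower, against 6.08% of all genes and 2.1% in the lower direction. It was also the 1 member whose groups did not overlap, against 4.38% of all genes, 1.62% in the lower direction. Cenpa differed by -0.66 (SE 0.32, adjusted p = 0.81), from 12.04 or more in every L12-ECKO library to 11.94 or less in every L12YT-ECKO library. Mki67 differed by 0.11 (SE 0.38, adjusted p = 0.99), with a 95% interval of -0.70 to 0.91, and Top2a by 0.06 (SE 0.25, adjusted p = 0.99), with an interval of -0.46 to 0.59. The 3 comparisons share libraries, so their values are given side by side and not counted as separate evidence. Without L12-ECKO replicate 1, 44 members were lower and 10 higher, the medians were -0.38 and -0.33, and 5 members stood at an unadjusted p under 0.05, all lower (Rrm2, Cenpa, Cenpf, Ube2c and Ttk), against 6.41% of all genes. Among the libraries with rows in place, which hold that library alone for L12-ECKO, the replication median turned to 0.26 and the mitosis median to 0.08, and among those with displaced rows the medians were -0.27 and -0.11. With sex as a covariate 0 members stood at an unadjusted p under 0.05, against 4.93% of all genes. With the row layout as a covariate this count was also 0, against 5.38%.

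**Figure D5:**
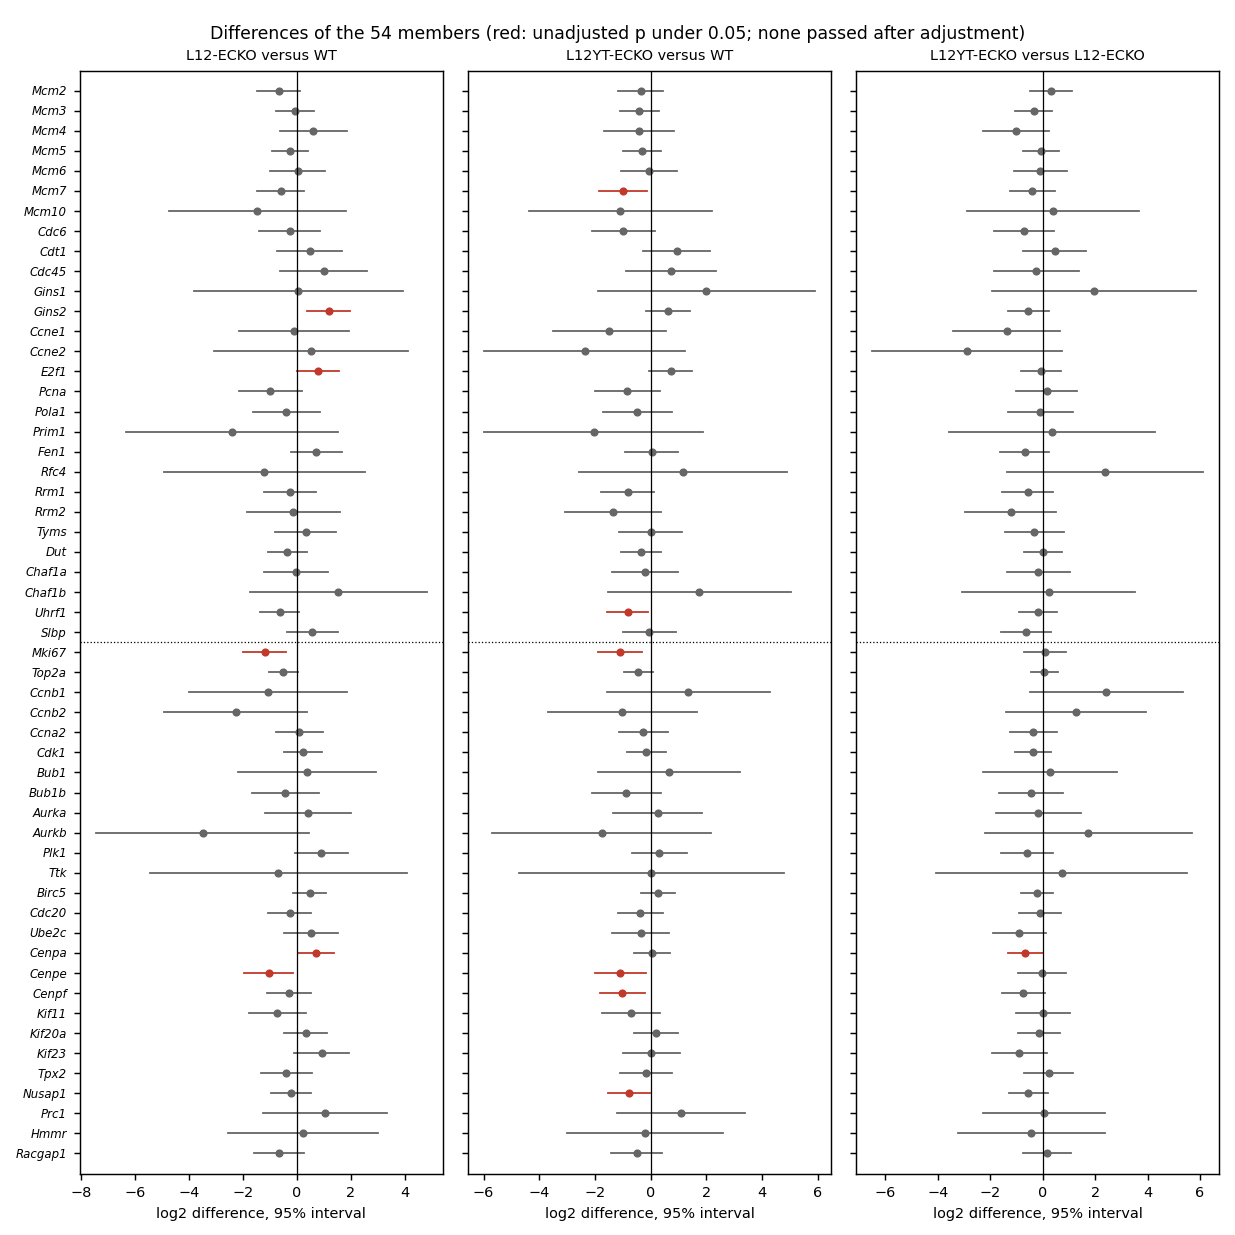
The log2 difference of each of the 54 members (vertical list, replication above the dotted line) with its 95% interval, in 3 panels for L12-ECKO versus WT, L12YT-ECKO versus WT and L12YT-ECKO versus L12-ECKO; the horizontal scales differ between panels. Red marks an unadjusted p under 0.05, in 5, 6 and 1 members; none of the 54 passed after adjustment over all genes in any panel, and the intervals of Aurkb, Gins1 and Ttk, each listed at 0 in at least 1 library, span more than 7 on the log2 scale.

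The replication genes are described next by role. 12 of them load and activate the helicase. Their mean per library was 8.14 ± 0.24 for WT, 8.14 ± 0.25 for L12-ECKO and 8.11 ± 0.37 for L12YT-ECKO (SD, n = 4), and 6 of 12 were higher in L12-ECKO and 4 of 12 in L12YT-ECKO than in WT. Mcm5 and Mcm3, subunits of the MCM ring, had the highest levels of the group. Mcm5 stood at 10.84, 10.35, 11.05 and 11.14 for WT, 10.15, 11.05, 11.22 and 9.95 for L12-ECKO and 10.33, 10.80, 10.21 and 10.76 for L12YT-ECKO. Mcm3 stood at 10.25, 9.76, 10.70 and 9.87 for WT, 9.49, 10.62, 10.41 and 9.80 for L12-ECKO and 9.87, 9.85, 9.41 and 9.81 for L12YT-ECKO. The ranges of both overlapped between all groups, with differences of -0.26 (SE 0.33, adjusted p = 0.78) and -0.06 (SE 0.34, adjusted p = 0.96) in L12-ECKO and -0.32 (SE 0.33, adjusted p = 0.90) and -0.41 (SE 0.34, adjusted p = 0.87) in L12YT-ECKO. Mcm6, whose promoter is shown above, differed by 0.02 and -0.06 from WT in L12-ECKO and L12YT-ECKO, Mcm2 by -0.68 and -0.36, and Mcm4 by 0.61 and -0.41. Mcm10 and Cdc45, which act as origins fire, differed by -1.46 and -1.08 and by 0.99 and 0.74, with SEs of 1.56 and 0.77. Gins1 stood at 0, 0, 4.72 and 0 for WT, 0, 0, 0 and 4.94 for L12-ECKO and 5.80, 3.02, 0 and 3.93 for L12YT-ECKO, too low for a comparison. Cdc6, which loads MCM with Cdt1, was lower in L12YT-ECKO by a difference of -0.98 (SE 0.54, adjusted p = 0.82), and Cdt1 higher by 0.93 (SE 0.58, adjusted p = 0.83); neither passed. The last 500 bases of Cdt1 overlap Gm20388 on the same strand, so a tag there could belong to either gene.

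3 genes mark entry into S phase: E2f1, above, and the E-type cyclins Ccne1 and Ccne2, which activate CDK2. Ccne2 stood at 8.93, 3.88, 8.83 and 9.36 for WT, 8.23, 7.98, 7.85 and 9.01 for L12-ECKO and 0, 6.26, 6.38 and 8.89 for L12YT-ECKO. WT replicate 2 and L12YT-ECKO replicate 1, listed at 0, were far under the others of their group, and the difference in L12YT-ECKO from L12-ECKO, -2.88 (SE 1.66, adjusted p = 0.87), had an interval of -6.49 to 0.72. Ccne1 differed by -0.11 (SE 0.98, adjusted p = 0.98) in L12-ECKO and -1.48 (SE 0.98, adjusted p = 0.83) in L12YT-ECKO.

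Of the 5 fork genes, Fen1, the flap endonuclease of lagging-strand processing, and Pola1, the catalytic subunit of polymerase alpha, were highest. Fen1 stood at 8.83, 10.15, 11.46 and 10.30 for WT, 10.15, 11.61, 10.97 and 10.89 for L12-ECKO and 10.67, 10.31, 10.26 and 9.64 for L12YT-ECKO, and Pola1 at 8.87, 7.60, 9.76 and 8.35 for WT, 8.30, 9.11, 7.07 and 8.53 for L12-ECKO and 6.71, 9.10, 8.38 and 8.46 for L12YT-ECKO. Both overlapped between all groups, with differences of 0.72 (SE 0.45, adjusted p = 0.53) and -0.39 (SE 0.59, adjusted p = 0.82) in L12-ECKO. Pcna, the sliding clamp, was lower in both knockout groups by -0.99 (SE 0.56, adjusted p = 0.48) and -0.84 (SE 0.56, adjusted p = 0.83), short of the threshold. Prim1, the primase subunit, stood at 7.31, 4.83, 6.65 and 3.72 for WT, 1.03, 6.86, 0 and 5.03 for L12-ECKO and 0, 2.0, 5.86 and 6.48 for L12YT-ECKO, and Rfc4, a subunit of the clamp loader, at 0, 5.56, 4.90 and 3.48 for WT, 0.65, 1.28, 6.07 and 1.07 for L12-ECKO and 6.87, 2.0, 5.35 and 4.37 for L12YT-ECKO. Both scattered within groups, Prim1 from 0 to 6.86 in L12-ECKO alone, and their differences in L12-ECKO were -2.40 (SE 1.88, adjusted p = 0.62) and -1.22 (SE 1.78, adjusted p = 0.82).

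The 4 nucleotide supply genes had means per library of 9.01 ± 0.20 for WT, 8.90 ± 0.71 for L12-ECKO and 8.38 ± 0.63 for L12YT-ECKO. Dut, which removes dUTP, stood at 10.29, 9.93, 11.11 and 10.19 for WT, 9.38, 10.20, 10.70 and 9.80 for L12-ECKO and 9.77, 10.13, 10.20 and 10.06 for L12YT-ECKO, and Rrm1, the large subunit of ribonucleotide reductase, at 9.66, 9.34, 9.34 and 8.07 for WT, 8.58, 8.78, 9.59 and 8.43 for L12-ECKO and 7.36, 8.58, 8.32 and 8.83 for L12YT-ECKO. Dut overlapped between all groups, while 3 of 4 L12YT-ECKO libraries stood at 8.58 or less for Rrm1, against 1 of 4 in WT, and the difference of -0.83 (SE 0.46, adjusted p = 0.82) did not pass. Rrm2, the regulated subunit, was lower by -1.36 (SE 0.83, adjusted p = 0.83) in L12YT-ECKO and Tyms, thymidylate synthase, was within 0.01 of WT there. Of the 4 genes that rebuild chromatin behind the fork, Slbp, which binds histone mRNA, stood at 8.64, 8.20, 9.98 and 8.30 for WT, 9.53, 8.87, 9.09 and 9.91 for L12-ECKO and 8.39, 8.10, 9.02 and 9.41 for L12YT-ECKO, and Chaf1b, a subunit of the assembly factor CAF-1, at 0, 4.83, 7.48 and 5.17 for WT, 4.89, 7.98, 6.95 and 3.76 for L12-ECKO and 7.42, 6.91, 6.59 and 3.57 for L12YT-ECKO. Slbp overlapped between all groups, and Chaf1b was listed at 0 in WT replicate 1, and its difference in L12-ECKO was 1.53 (SE 1.57, adjusted p = 0.72). Chaf1a, the other CAF-1 subunit of the set, differed from WT by -0.04 in L12-ECKO and -0.20 in L12YT-ECKO.

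The mitosis genes were taken by role in the same way. The cyclins and their kinase did not separate the groups. Cdk1, the mitotic kinase, stood at 9.94, 9.85, 10.29 and 10.47 for WT, 9.54, 10.20, 10.88 and 10.81 for L12-ECKO and 10.22, 10.06, 9.92 and 9.72 for L12YT-ECKO, with differences of 0.22 (SE 0.33, adjusted p = 0.82) and -0.16 (SE 0.33, adjusted p = 0.95) from WT. Ccna2, cyclin A2, stood at 9.20, 8.30, 9.94 and 9.06 for WT, 9.60, 9.22, 9.33 and 8.73 for L12-ECKO and 8.0, 9.21, 9.03 and 9.22 for L12YT-ECKO, with differences of 0.09 (SE 0.42, adjusted p = 0.95) and -0.26 (SE 0.42, adjusted p = 0.94). None of these 4 differences was larger than its SE. Ccnb1, cyclin B1, stood at 3.59, 6.70, 5.97 and 7.41 for WT, 6.29, 6.06, 0 and 7.0 for L12-ECKO and 7.19, 7.72, 6.22 and 7.95 for L12YT-ECKO, and was listed at 0 in L12-ECKO replicate 3, as was Ccnb2. Without this library the difference of Ccnb1 from WT in L12-ECKO was 0.53 and that of Ccnb2 -0.51, against -1.08 and -2.28 over all libraries.

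Of the 7 kinase and checkpoint genes, 4 were higher in L12-ECKO and 5 in L12YT-ECKO than in WT, none of them called. Birc5 stood at 11.73, 11.48, 11.17 and 11.14 for WT, 11.19, 11.79, 12.23 and 12.20 for L12-ECKO and 11.31, 11.26, 12.18 and 11.82 for L12YT-ECKO, and Plk1, the polo kinase of mitotic entry, at 8.38, 8.39, 8.87 and 9.83 for WT, 9.19, 9.62, 9.79 and 10.46 for L12-ECKO and 7.92, 9.21, 10.16 and 9.44 for L12YT-ECKO. Both had their highest mean in L12-ECKO, with differences from WT of 0.47 (SE 0.29, adjusted p = 0.52) and 0.90 (SE 0.47, adjusted p = 0.45). Aurkb, the kinase of the passenger complex, stood at 7.43, 4.64, 7.46 and 6.67 for WT, 7.53, 0, 0 and 4.66 for L12-ECKO and 0, 5.51, 6.49 and 7.16 for L12YT-ECKO. It was listed at 0 in 2 L12-ECKO libraries and 1 L12YT-ECKO library, and its difference of -3.50 (SE 1.89, adjusted p = 0.46) was the lowest of all members in L12-ECKO. Ttk stood at 7.33, 8.96, 7.78 and 9.63 for WT, 0, 10.39, 10.01 and 10.54 for L12-ECKO and 6.96, 8.60, 8.59 and 9.67 for L12YT-ECKO. Its 3 other L12-ECKO libraries were the highest of all 12, and replicate 1 was listed at 0, so the difference was -0.69 with that library and 1.89 without it. Aurka, Bub1 and Bub1b, the other spindle kinases of the set, differed from WT by 0.41, 0.37 and -0.43 in L12-ECKO and by 0.25, 0.66 and -0.87 in L12YT-ECKO.

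Cdc20, which activates the anaphase-promoting complex, stood at 9.35, 9.61, 9.04 and 9.45 for WT, 9.17, 9.28, 9.64 and 8.31 for L12-ECKO and 8.92, 9.53, 8.49 and 9.04 for L12YT-ECKO, and Ube2c, its ubiquitin-conjugating enzyme, at 8.80, 9.42, 9.56 and 9.23 for WT, 8.31, 10.53, 11.05 and 9.21 for L12-ECKO and 8.58, 9.20, 8.68 and 9.10 for L12YT-ECKO. Cdc20 overlapped between all groups, and Ube2c had 2 L12-ECKO libraries above all others and 1 under all others, with a difference of 0.52 (SE 0.48, adjusted p = 0.69). The 8 spindle and cytokinesis genes had means per library of 9.21 ± 0.31 for WT, 9.27 ± 0.72 for L12-ECKO and 9.08 ± 0.32 for L12YT-ECKO. Tpx2, which activates Aurora A on the spindle, stood at 11.75, 9.09, 11.28 and 11.24 for WT, 9.99, 10.79, 10.56 and 10.44 for L12-ECKO and 10.87, 10.76, 10.03 and 11.04 for L12YT-ECKO, and Prc1, the midzone bundling protein, at 9.14, 8.27, 10.54 and 4.72 for WT, 7.88, 9.57, 10.94 and 8.47 for L12-ECKO and 8.73, 9.67, 9.47 and 9.19 for L12YT-ECKO. Neither separated the groups: Tpx2 differed by -0.40 (SE 0.45, adjusted p = 0.74) in L12-ECKO, and Prc1 by 1.05 (SE 1.06, adjusted p = 0.72), with WT replicate 4 at 4.72 far under the rest. Among the kinesins of this group, Kif23 differed from WT by 0.91 and 0.03 in L12-ECKO and L12YT-ECKO. Kif11 differed by -0.72 and -0.71, and Kif20a by 0.33 and 0.19. Racgap1, which acts in cytokinesis, differed by -0.66 and -0.50 and the hyaluronan receptor gene Hmmr by 0.23 and -0.20.

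The differences between genotypes did not divide the genes along the promoter letters shown above. In L12YT-ECKO against WT the median log2 difference was -0.36 over the 19 genes with CHR and CCAAT letters and without E2F letters, -0.36 over the 6 with E2F and without CHR letters, and -0.34 over the 19 with neither E2F letters nor CHR and CCAAT letters together. In L12-ECKO against WT the corresponding medians were -0.26, -0.16 and -0.23.

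Precision limits what could be seen. The median SE of a member's difference was 0.49. In L12-ECKO against WT, the 95% interval of 49 of 54 members reached past a log2 difference of 1 in at least 1 direction, and that of 5 lay within it. In L12YT-ECKO against WT these counts were 48 and 6, and in L12YT-ECKO against L12-ECKO 44 and 10.

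45 other cell cycle genes in 5 lists cover G1 cyclins and kinases, CDK inhibitors, the E2F, RB, DREAM and B-MYB regulators, origin recognition, and G2 kinases and phosphatases. 41 were tested, and limma called none of them in any comparison. Of all genes it called 0.481%, 0.0086% and 0.0688% in the 3 comparisons. In L12-ECKO against WT 20 were higher and 21 lower, with 4 past an unadjusted p of 0.05 (9.8%, against 12.2% of all genes). In L12YT-ECKO against WT 19 were higher and 22 lower, with 2 past it (4.9%, against 6.23%). In L12YT-ECKO against L12-ECKO 17 were higher and 24 lower, with 2 past it (4.9%, against 6.08%). None of these shares was above that of all genes. Ccnd1, cyclin D1 of G1 phase, was level at 13.61 ± 0.25 for WT, 13.84 ± 0.46 for L12-ECKO and 13.54 ± 0.24 for L12YT-ECKO. Cdkn1a, which encodes the CDK inhibitor p21, stood at 9.85, 9.41, 11.22 and 11.10 for WT, 12.22, 11.90, 11.81 and 10.73 for L12-ECKO and 13.27, 11.26, 10.84 and 10.59 for L12YT-ECKO. 3 of 4 L12-ECKO libraries were above all WT libraries, and the differences were 1.27 (SE 0.59, adjusted p = 0.41) and 1.09 (SE 0.59, adjusted p = 0.82). E2f2, an activating E2F, differed from WT by -0.41 in L12-ECKO and -0.22 in L12YT-ECKO, Orc3, an origin recognition subunit, by 0.57 and -0.08, and Cdc25b, a phosphatase that activates CDK1, by 0.53 and 0.73. Ccnd2, cyclin D2, was singled out after its values were seen. Its values were 11.77, 11.74, 11.85 and 12.10 for WT, 10.42, 12.27, 11.55 and 11.10 for L12-ECKO and 12.29, 12.03, 13.09 and 12.71 for L12YT-ECKO. Of the L12-ECKO libraries only replicate 2 reached the L12YT-ECKO range, as did WT replicate 4, and L12YT-ECKO differed from L12-ECKO by 1.19 (SE 0.33, adjusted p = 0.36).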

How the data were processed

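The authors deposited 1 table of values per library, of RNA from sorted lung endothelial cells (4 WT, 4 L12-ECKO and 4 L12YT-ECKO libraries). The deposited values are on a log2 scale from 0 to 20.665, and at the same rank within the top 5000 they differ between libraries by at most 0.168, as quantile normalization gives. Bowtie2, edgeR and the mm10 build are named per the submitters' processing notes, with no version or role; how reads were counted, with which annotation and whether by strand, is not given in the sources used here. Counts could not be recovered, so depth is unknown and no counting interval is given.

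35 rows displaced or exchanged between tables and 27 genes not listed in all tables were left out, which left 24359 genes. Values were raised from the log2 scale and scaled to CPM, and genes with at least 1 CPM in at least 4 libraries were kept (11633). limma 3.58.1 (R 4.3.3, statmod 1.5.0; trend and robust) was fitted to all 12 libraries with 3 group means and 9 residual degrees of freedom, with Benjamini-Hochberg adjustment over all genes tested and a threshold of 0.05 on the adjusted p. Intervals are 95% intervals. The last 500 bases of each gene were compared with the GENCODE annotation of GRCm38. They overlapped another gene on the same strand for 1 member, Cdt1, and on the opposite strand for 11. The 11 were Mcm7, Gins2, Ccne2, Chaf1a, Fen1, Rfc4, Ccna2, Cdc20, Kif20a, Ube2c and Prc1. No library pair held identical values.

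The members and all gene lists were chosen with earlier results of these data known, so no p is given over a list. Values by library are given for the 2 members of highest mean in each of 11 role groups, for every member called, and for the member with the largest positive and the largest negative difference in each list and comparison (29 members). For each list of other cell cycle genes the gene of highest mean is given. Any other gene was chosen after its values were seen. Alternatives were other filters, floors and scalings, the row layout, sex or replicate number as a term, the layouts apart, and each library left out in turn.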

Additional observations from a re-analysis of the deposited data

Results flagged for a closer look

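In 17 of 162 gene and group combinations (54 members in 3 groups of 4 libraries), 1 library lay far from the other 3 by the ratio of its gap to the range of the group. By chance the rule flags about 1 in 20 if values within a group follow a normal distribution. Some flags rest on values without signal, as for Gins1, Ccnb1, Ccnb2 and Ttk, and for Mcm10 in L12-ECKO. The share flagged among all genes tested was not counted, so the members are not shown to hold more such libraries than other genes.

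Among the replication genes, Mcm3 stood at 9.41 in L12YT-ECKO replicate 3 and Mcm10 at 0 in L12-ECKO replicate 3 and 3.52 in L12YT-ECKO replicate 2. Gins1 was above 0 in 1 library of WT (replicate 3, 4.72) and 1 of L12-ECKO (replicate 4, 4.94). Ccne2 was low in WT replicate 2 (3.88) and E2f1 in L12YT-ECKO replicate 2 (9.72, the lowest of 4 close values). Tyms, thymidylate synthase, was low in L12-ECKO replicate 1 (7.55) and L12YT-ECKO replicate 4 (7.73), and Rfc4 high in L12-ECKO replicate 3 (6.07).

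Among the mitosis genes, Ccnb1 and Ccnb2 were listed at 0 in L12-ECKO replicate 3 and Ttk at 0 in L12-ECKO replicate 1. Ccna2 was low in L12YT-ECKO replicate 1 (8.0), Cenpe high in L12-ECKO replicate 4 (9.14) and low in L12YT-ECKO replicate 3 (7.56), and Racgap1, which acts in cytokinesis, low in WT replicate 4 (8.81).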

How the results depend on the processing

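0 members were called in any comparison under any alternative but 1: among libraries with rows in place, 1 member, Ttk, was called in L12-ECKO against WT (difference -8.42), and this rests on L12-ECKO replicate 1 alone, listed at 0 and assumed to vary like the other groups. In the same libraries the L12-ECKO against WT medians moved to -0.60 (replication) and -0.847 (mitosis) and the L12YT-ECKO against L12-ECKO replication median to 0.258. With the row layout as a covariate the L12YT-ECKO against WT mitosis median moved to -0.688. The cause was not tested. With each library left out in turn, called members numbered 0 to 0. Members at an unadjusted p under 0.05 then numbered 3 to 10 in L12-ECKO against WT, 3 to 8 in L12YT-ECKO against WT and 0 to 5 in L12YT-ECKO against L12-ECKO. Of all genes, 10.2% to 13.2%, 4.49% to 7.39% and 4.77% to 7.41% passed this p in the same fits. In the same order, replication medians ran from -0.264 to 0.222, -0.487 to -0.210 and -0.378 to -0.157, and mitosis medians from -0.428 to -0.022, -0.375 to -0.224 and -0.325 to -0.008.

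Over all genes, calls in L12-ECKO against WT numbered 56, against 15 to 80 with a library left out, 21 with no filter, 87 with a floor of 5, 27 on a second log scale, 7 without the variance trend, and 15 with the row layout or sex as a covariate and 30 in a fit of these groups alone. Whether same-numbered libraries share more than a number is not given in the sources used here. With the replicate block 0 members and 43, 1 and 6 genes in all were called in the 3 comparisons. The deviations of same-numbered libraries correlated at -0.0463 to 0.0582, against -0.1037 to 0.1541 for others. The unknown depth leaves values of 0 and low genes least certain.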
